A study of Homo sapiens with 12 samples.

Results

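RNA levels in HepG2 cells after 30 min of insulin were compared with those after 10 min, over every gene with a gene name. The comparison took 4 of the 10 RNA-seq libraries of the series, 2 replicates at 10 min and 2 at 30 min, and 13852 of 26364 named genes had enough counts to be tested. HepG2 is an established line from a human liver cancer. The cells were grown in EMEM with fetal bovine serum, kept for 16 h in EMEM, and then given insulin in EMEM with BSA. The library titles give the times, 0, 5, 10, 30 and 240 min, whereas the treatment text of each library gives 3 nM insulin for 5 min, so the dose is not stated separately for each time. The 10 min and 30 min cells carried no genetic change and differed, by their labels, only in the time under insulin. The libraries were made once from independent samples of a single line.

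Insulin binds its receptor, a tyrosine kinase, and signals through PI3K and AKT on one arm and through RAS and ERK on the other. ERK activity switches on immediate early genes, which need no new protein to be transcribed and encode transcription factors such as EGR1, FOS and JUN, together with phosphatases and other brakes on the pathway. The AKT arm is known in liver for lowering FOXO target genes such as IGFBP1 and PCK1 and for raising SREBP target genes of fatty acid and cholesterol synthesis, usually over hours.

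Between 10 and 30 min, EGR1 rose, and it was the only gene of the 13852 to pass an adjusted p of 0.05 (quasi-likelihood F test of edgeR, Benjamini-Hochberg adjustment over all genes), which is 0.00722% of them in the upward direction and 0.0% in the downward direction. EGR1 encodes a zinc finger transcription factor induced by ERK through serum response factor. Its level, in CPM, reads scaled to library size after TMM normalization, was 14.5 and 15.4 in the 2 replicates at 10 min and 47.5 and 34.3 in the 2 replicates at 30 min. Both 30 min libraries stood well above both 10 min libraries, although they differed from each other by more than the 10 min pair did. The fitted log2 fold change was 1.47 (SE 0.128, 95% confidence interval 1.20 to 1.73, adjusted p = 7.73e-06), a 2.77-fold rise that rests on 379 and 361 reads at 10 min and 1322 and 707 at 30 min. In bulk RNA, more EGR1 per cell and more cells that make it cannot be told apart. The gene lies on the plus strand of chromosome 5 from 137801181 to 137805004 in hg19. At 0 min its level was 25.8 and 20.5 CPM and at 5 min 21.6 and 21.6 CPM, so the 10 min libraries held the lowest EGR1 of the course. Against 0 min, which shares the 30 min libraries with the comparison above, EGR1 was higher at 30 min by 0.86 on the log2 scale (adjusted p = 0.00086), where 0.188% of the genes tested passed upwards and 0.144% downwards. The 10 min libraries were below 0 min by values that did not pass, a log2 fold change of -0.61 with an adjusted p of 0.11.

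The 250 bases before the EGR1 start are shown because they hold matches to the CArG box, the element that serum response factor binds. The sequence is the plus strand of chr5:138465229-138465478 in GRCh38.p14, from RefSeq, written 5′ to 3′ with matches to the CArG box in capitals.
EGR1: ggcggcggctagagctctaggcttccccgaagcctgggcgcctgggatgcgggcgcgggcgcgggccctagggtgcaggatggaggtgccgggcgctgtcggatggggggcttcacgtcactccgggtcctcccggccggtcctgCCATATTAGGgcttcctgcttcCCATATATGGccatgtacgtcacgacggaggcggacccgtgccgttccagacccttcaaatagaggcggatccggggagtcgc
The 2 CArG boxes, searched on both strands, began 105 and 83 bases before the start. Of 27305 promoters of this length, 1.14% held a CArG box. The EGR, AP-1 and other immediate early lists held 33 genes, and of the 25 promoters found for them, those of EGR1 and SRF did. FOS and JUN were among the genes whose promoter was not found, so these were not searched.

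The other tested genes of the EGR list did not pass. EGR2 and EGR3, relatives of EGR1, were scarce, with at most 0.502 CPM in these 4 libraries, and their 30 min values overlapped those at 10 min. NAB1 and NAB2, co-repressors that bind EGR proteins, had log2 fold changes of 0.0063 and 0.069. SRF itself was at 70.5 and 71.0 CPM at 10 min and at 72.0 and 68.3 CPM at 30 min. EGR1 was the one member of 6 tested with an unadjusted p under 0.05, a level that 2.07% of all genes reached in the upward direction and 1.83% in the downward direction. The median log2 fold change of the 6 was 0.038, and over all genes tested it was 0.000946. Leaving out 10 min replicate 2 moved the median of the 6 to 0.42, leaving out 30 min replicate 1 moved it to 0.018, and without 10 min replicate 1 or 30 min replicate 2 it was 0.061.

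**Figure D1:**
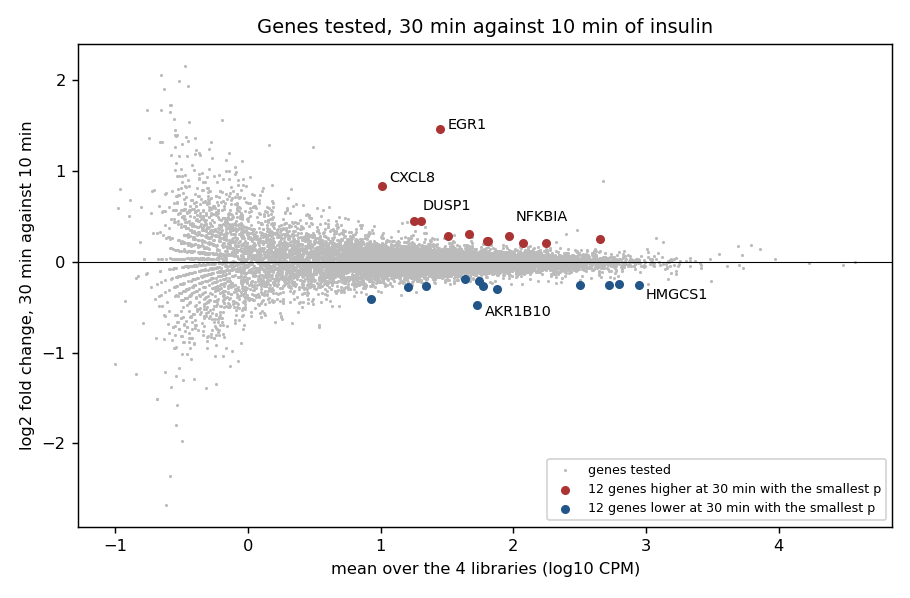
Log2 fold change of each of the 13852 genes tested, 30 min against 10 min, against the mean level over the 4 libraries on a log10 CPM axis. Red and blue points are the 12 genes higher and the 12 genes lower at 30 min with the smallest p among genes of at least 5 CPM whose replicates did not overlap, and EGR1, at 1.47, stands apart from the other genes of similar level.

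Across the whole table the median absolute log2 fold change was 0.0607. Of the genes tested, 287 were higher and 254 lower at an unadjusted p under 0.05, 541 in all where 692.6 would come from evenly spread p-values. Both 30 min libraries were above both 10 min libraries in 15.9% of the genes and below both in 16.3%. These shares, and the 2.07% higher and 1.83% lower at an unadjusted p under 0.05, are the background for the list counts below. Changes of at least 2-fold were fitted for 74 genes, of which 1 had a mean of 5 CPM or more. For the 10370 genes with at least 5 CPM the median SE was 0.0686, and the 95% interval reached 0.144 to either side of the estimate. For a typical gene with 2 replicates, differences smaller than this could not be told from 0 even before adjustment over all genes. After adjustment larger differences also failed to pass, such as that of NFKBIA, at 0.29 with an SE of 0.0482. A gene that did not pass can therefore have changed by more than 0.144. More genes passed in the fits without a filter on low counts (22 higher, 19 lower) and with a replicate block and only the 4 libraries (65 and 53). In these fits, and in those with ERCC scaling, the prior degrees of freedom were infinite, so that each gene was given the spread of the trend over genes and none from its own replicates. In the fit reported here they were 13.9.

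AP-1 factors, the FOS and JUN proteins that bind DNA as pairs, gave the highest median of the lists of transcription factors, and no member passed. Of 8 tested, 7 were higher at 30 min, 4 of these at an unadjusted p under 0.05, and the median log2 fold change was 0.23. FOS was at 1.42 and 2.26 CPM at 10 min and at 4.45 and 4.32 CPM at 30 min. The 30 min values were close to each other and above both 10 min values, on 37 and 53 reads against 124 and 89. The log2 fold change of FOS was 1.27 (SE 0.273, adjusted p = 0.402). FOSB, a relative of FOS, was at 0.956 and 0.724 CPM at 10 min and at 2.44 and 1.6 CPM at 30 min, a log2 fold change of 1.29 (adjusted p = 0.997). JUN went from 42.0 and 40.0 CPM to 48.9 and 52.8 CPM, a log2 fold change of 0.31 (95% interval 0.16 to 0.45, adjusted p = 0.520). JUNB, which pairs with FOS as JUN does, was at 4.47 and 4.47 CPM and then at 5.85 and 6.80 CPM. FOSL1, FOSL2, JUND and ATF3 had log2 fold changes of 0.13, 0.11, -0.0089 and 0.16, and of these FOSL2 alone had 30 min values that did not overlap those at 10 min. FOS passed under 4 of 16 alternatives, FOSB under 3 and JUN under 2, each time in a fit with infinite prior degrees of freedom. Leaving out 30 min replicate 1 moved the list median to 0.39, and leaving out 30 min replicate 2 moved it to 0.16. At 0 min FOS was at 2.552 and 1.145 CPM and JUN at 46.4 and 48.0 CPM. Against 0 min the list median was -0.073 at 10 min and 0.088 at 30 min, in comparisons that share libraries with this one. Of the 8 genes, 7 were below 0 min at 10 min and 2 at 30 min.

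Genes that damp ERK signalling were mostly higher at 30 min by values that did not pass. In this list of dual-specificity phosphatases, SPRY and SPRED proteins, IER3 and ERRFI1, 10 of 15 tested genes were higher and 4 had an unadjusted p under 0.05, with a median log2 fold change of 0.10. DUSP1, which inactivates MAP kinases, was at 14.2 and 16.0 CPM at 10 min and at 20.4 and 20.9 CPM at 30 min. Its log2 fold change was 0.46 (95% interval 0.26 to 0.65, adjusted p = 0.349). IER3 was at 18.4 and 21.3 CPM at 10 min and at 22.9 and 24.2 CPM at 30 min. DUSP6, the phosphatase most tied to ERK itself, was at 85.8 and 90.1 CPM and then at 97.5 and 94.2 CPM. For IER3 and DUSP6 the 30 min values lay between those at 10 min and those at 0 min, where IER3 was at 33.0 and 31.6 CPM and DUSP6 at 138 and 132 CPM. Both fell from 0 to 10 min, with log2 fold changes of -0.70 (adjusted p = 0.00015) and -0.62 (adjusted p = 3.9e-06), in a comparison where 0.0433% of the genes passed upwards and 0.0938% downwards. All 15 genes of the list were below 0 min at 10 min and 10 of them at 30 min. The share of all genes below 0 min is not given here. Against 0 min the list median was -0.12 at 10 min and -0.050 at 30 min. The fall from 0 min and the later rise share the 10 min libraries, so low values in these libraries favour both. DUSP1 passed at 30 min against 10 min under 2 of 16 alternatives, no filter and the block with only the 4 libraries, whereas IER3 and DUSP6 passed under none. The median of the list at 30 min against 10 min shrank to 0.019 without 30 min replicate 2 and to 0.046 without 10 min replicate 1.

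The promoter of DUSP1 is shown because it holds a cyclic AMP response element and an E-box near each other. It is the minus strand of chr5:172771196-172771445 in GRCh38.p14, from RefSeq, with the matches in capitals.
DUSP1: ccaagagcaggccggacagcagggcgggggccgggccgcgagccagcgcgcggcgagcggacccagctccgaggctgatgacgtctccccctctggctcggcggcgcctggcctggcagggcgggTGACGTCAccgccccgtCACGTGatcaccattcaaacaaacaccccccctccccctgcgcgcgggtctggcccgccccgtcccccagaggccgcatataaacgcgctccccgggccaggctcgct
TGACGTCA began 125 bases and CACGTG 108 bases before the start. Of 27305 promoters, 1.77% held TGACGTCA and 6.49% held CACGTG, both read on 2 strands.

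Of the other immediate early genes, 14 of 17 tested were higher at 30 min and 2 had an unadjusted p under 0.05, with a median log2 fold change of 0.11. PHLDA1, a pleckstrin homology domain protein, was at 209 and 219 CPM at 10 min and at 227 and 249 CPM at 30 min. CYR61, a secreted matrix protein, was at 40.9 and 49.0 CPM and then at 49.4 and 54.1 CPM. In both genes the 2 times did not overlap, but the gap between them was narrower than the gap between the replicates of either time. With a single library left out the list median was smaller, from 0.097 without 10 min replicate 2 to 0.052 without 30 min replicate 2, where 11 of the 17 genes were higher. Against 0 min the list median was -0.14 at 10 min and -0.021 at 30 min, in comparisons that share these libraries. Of the 17 genes, 11 were below 0 min at 10 min and 9 at 30 min.

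**Figure D2:**
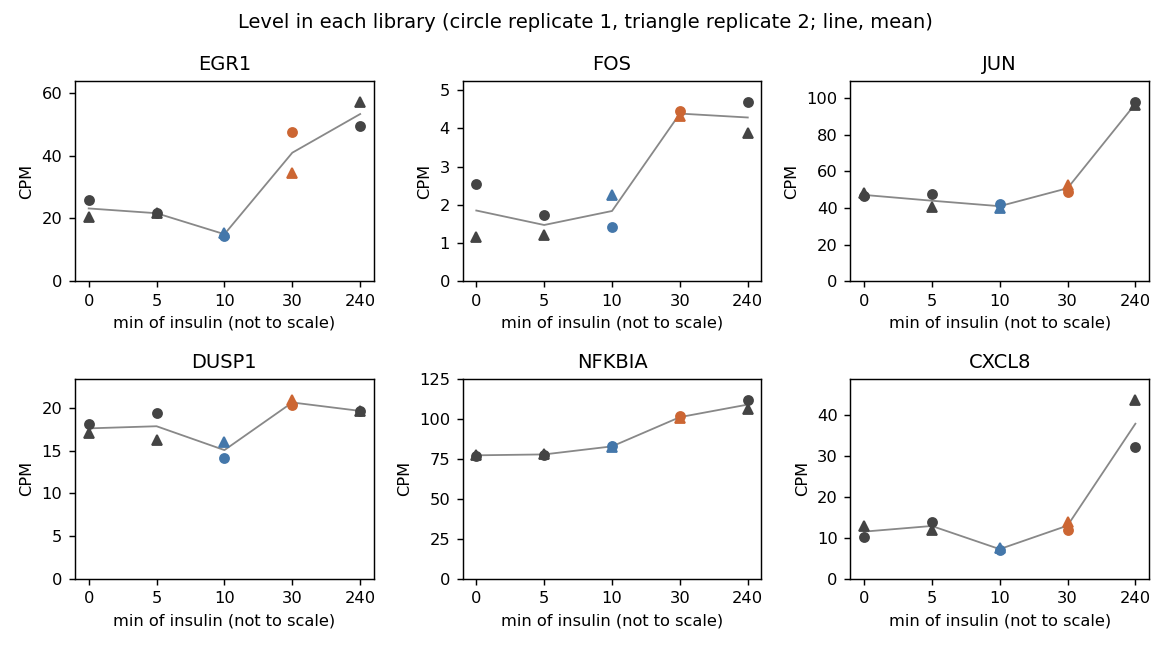
Level in CPM of EGR1, FOS, JUN, DUSP1, NFKBIA and CXCL8 in each of the 10 libraries, with time categories evenly spaced, each axis starting at 0 and the mean joined by a line. In each panel both 30 min libraries, in orange, lie above both 10 min libraries, in blue, and for EGR1, JUN, DUSP1 and CXCL8 the 10 min mean is the lowest of the 5 times.

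Feedback and chemokine genes of NF-kappaB held 3 of the 12 higher genes with the smallest p, again without passing. NFKBIA encodes the inhibitor that holds NF-kappaB in the cytoplasm. It was at 83.3 and 82.3 CPM at 10 min and at 102 and 100 CPM at 30 min, and it was the gene nearest to passing after EGR1. The log2 fold change of NFKBIA was 0.29 (SE 0.0482, 95% interval 0.19 to 0.39, adjusted p = 0.0659), and its levels at 0 and 5 min ran from 76.8 to 77.9 CPM. Against 0 min NFKBIA was higher at 30 min by 0.39 on the log2 scale (adjusted p = 0.00034). CXCL8, a neutrophil chemokine, was at 7.04 and 7.50 CPM at 10 min and at 12.1 and 14.0 CPM at 30 min. The log2 fold change of CXCL8 was 0.83 (95% interval 0.50 to 1.17, adjusted p = 0.225). At 0 min CXCL8 was at 10.1 and 13.0 CPM, a range that the 30 min values overlapped. CCL20, a chemokine for lymphocytes and dendritic cells, was at 28.5 and 29.6 CPM at 10 min and at 34.6 and 36.5 CPM at 30 min, below its 41.7 CPM in each library at 0 min. CCL20 fell from 0 to 10 min (log2 fold change -0.52, adjusted p = 0.0038). TNFAIP3, a ubiquitin-editing brake on NF-kappaB, was at 125 and 117 CPM and then at 137 and 134 CPM. BIRC3, an inhibitor of apoptosis, was at 21.6 and 22.7 CPM and then at 24.5 and 28.7 CPM. These 5 of 10 tested genes had an unadjusted p under 0.05, all upwards, and the list median was 0.21. The other 5 tested had unadjusted p-values of 0.249 or more, and 3 of these were lower at 30 min. Against 0 min the list median was -0.14 at 10 min and -0.0105 at 30 min, in comparisons that share libraries with this one. Of the 10 genes, 8 were below 0 min at 10 min and 5 at 30 min. NFKBIA passed under 5 of 16 alternatives and CXCL8 under 7, with DESeq2 and with the replicate block among them. BIRC3 was named after its values were seen.

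Promoters of NFKBIA, CCL20 and TNFAIP3 are shown because the kappaB site recurs near their starts. The strands are the minus strand of chr14:35404750-35404999, the plus strand of chr2:227813592-227813841 and the plus strand of chr6:137867009-137867258 in GRCh38.p14, from RefSeq, with the matches in capitals.
NFKBIA: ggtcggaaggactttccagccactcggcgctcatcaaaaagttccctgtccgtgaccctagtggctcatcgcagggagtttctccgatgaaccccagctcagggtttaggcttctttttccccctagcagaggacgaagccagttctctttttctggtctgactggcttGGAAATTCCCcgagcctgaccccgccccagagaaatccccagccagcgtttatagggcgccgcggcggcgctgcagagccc
CCL20: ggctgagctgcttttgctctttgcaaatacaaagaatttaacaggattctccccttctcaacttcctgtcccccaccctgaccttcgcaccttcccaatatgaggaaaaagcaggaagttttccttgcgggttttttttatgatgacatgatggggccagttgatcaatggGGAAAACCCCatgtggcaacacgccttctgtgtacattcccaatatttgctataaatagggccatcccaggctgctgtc
TNFAIP3: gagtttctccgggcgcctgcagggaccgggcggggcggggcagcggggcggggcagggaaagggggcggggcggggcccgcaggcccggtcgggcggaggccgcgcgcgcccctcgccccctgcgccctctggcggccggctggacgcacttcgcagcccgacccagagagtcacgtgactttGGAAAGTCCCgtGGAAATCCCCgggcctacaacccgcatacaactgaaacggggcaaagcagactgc
The sites began 81 bases before the start of NFKBIA, 79 before that of CCL20, and 67 and 55 before that of TNFAIP3. The search for this site was added after the values were seen. It was found in 8 of the 10 promoters matched for the list (80.0%), against 5.05% of 27305 promoters and 5.89% of the 10823 found for tested genes. The list was made up of NF-kappaB genes, so a high share follows from that choice and does not bear on the change between the times.

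The remaining higher genes with the smallest p had small differences that did not pass. SOX9, a transcription factor of bile duct and progenitor cells, was at 418 and 401 CPM at 10 min and at 486 and 489 CPM at 30 min, a log2 fold change of 0.25 (adjusted p = 0.360). ZFP36L2, which binds AU-rich mRNAs and speeds their decay, was at 165 and 160 CPM and then at 194 and 183 CPM. ZNF503, a transcriptional repressor, was at 60.1 and 58.6 CPM and then at 68.7 and 70.6 CPM. BMF, a BH3-only protein that favours apoptosis, was at 19.3 and 14.8 CPM and then at 24.1 and 22.8 CPM. For SOX9, ZFP36L2 and ZNF503 the gap between times was wider than either pair of replicates, and for BMF it was narrower than the gap between the 10 min replicates. TMEM106B, a lysosomal membrane protein, had a log2 fold change of 0.21, and NDRG1, a stress-response gene, one of 0.23. Against 0 min, 6 of the 12 higher genes passed at 30 min and 1, CCL20, passed at 10 min, in comparisons that share libraries with this one. Over all genes tested, 0.188% passed upwards and 0.144% downwards at 30 min, and 0.0433% and 0.0938% at 10 min. The 12 were chosen for high 30 min values, so more passes at 30 min are favoured by the choice of genes.

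The 12 higher genes were short. Their median span in the genome was 4.01 kb, and 8 spanned less than 10 kb, whereas the 12 lower genes had a median span of 17.2 kb with 1 under 10 kb. All genes tested had a median span of 26.1 kb. Of the 9 higher genes with a promoter in the RefSeq table, 0 held GCGTGGGCG, a sequence that EGR1 binds. Of the promoters of tested genes, 1.18% held it on either strand, and 9 promoters are too few to differ from so small a share by holding 0. With all genes ranked by span into 5 equal bins, the median log2 fold change of a bin stayed between -0.0081 and 0.013, and in the bin of shortest genes 2.81% were higher at an unadjusted p under 0.05 and 1.35% lower.

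**Figure D3:**
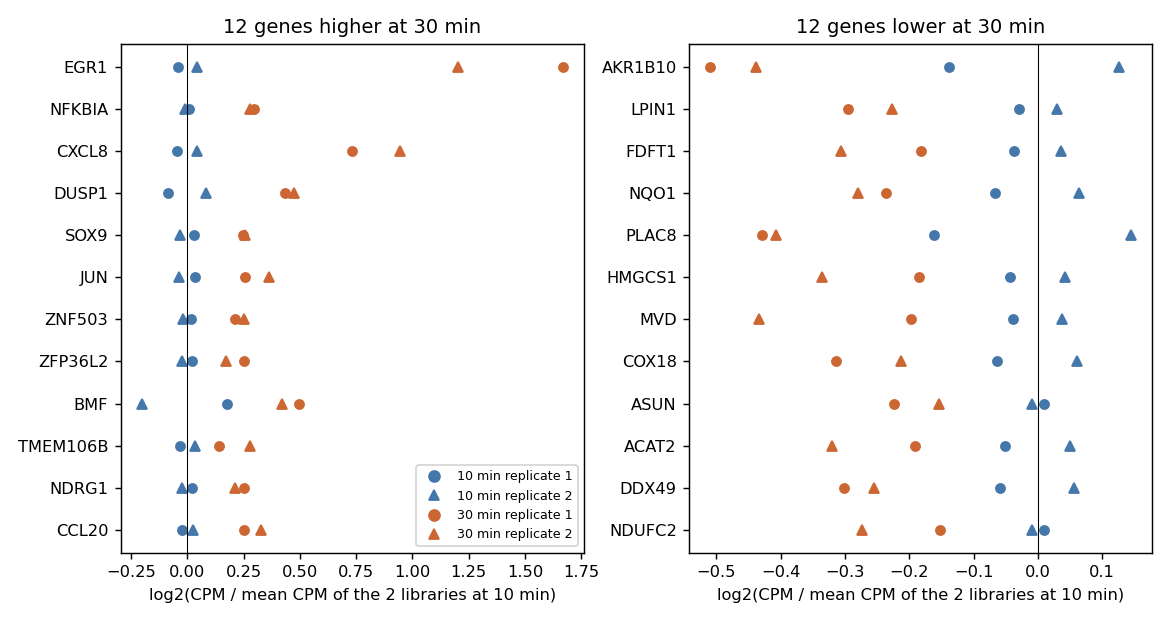
Level of the 12 higher (left) and 12 lower genes (right) in each of the 4 libraries, as log2 of CPM over the mean of the 2 libraries at 10 min, with the smallest p at the top and separate horizontal scales. Circles are replicate 1 and triangles replicate 2, blue 10 min and orange 30 min, and among the lower genes 10 min replicate 1 lies nearer to the 30 min libraries than 10 min replicate 2 does, except for ASUN and NDUFC2.

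Genes acting around these signals varied less. Among mRNA decay factors, 7 of 8 tested were higher and 3 had an unadjusted p under 0.05, ZFP36L2, ZFP36L1 and BTG2, with log2 fold changes of 0.21, 0.14 and 0.18. ZFP36, the founding member of the family, was at 4.97 and 6.09 CPM at 10 min and at 5.71 and 6.90 CPM at 30 min, values that overlapped. Of 11 tested BMP and TGF-beta targets, 10 were higher, with a median of 0.088. SKIL, which represses SMAD proteins, was the one with an unadjusted p under 0.05, at 21.3 and 21.6 CPM and then at 24.7 and 25.8 CPM.

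Genes of cholesterol synthesis were lower at 30 min almost throughout, by values that did not pass. Of 24 tested, 23 had a log2 fold change below 0, 16 of them at an unadjusted p under 0.05. In 19 both 30 min libraries were below both 10 min libraries. Over all genes tested, 1.83% were lower at this p and 16.3% had both libraries below. In 22 of the 24 the 2 replicates at 0 min differed by more than the fold change between 10 and 30 min. The median log2 fold change was -0.16. HMGCS1, which makes HMG-CoA, was at 938 and 994 CPM at 10 min and at 849 and 765 CPM at 30 min, a log2 fold change of -0.26 (95% interval -0.42 to -0.10, adjusted p = 0.997). FDFT1, squalene synthase, was at 658 and 693 CPM and then at 596 and 546 CPM. MVD, mevalonate diphosphate decarboxylase, was at 80.5 and 84.9 CPM and then at 72.1 and 61.2 CPM. ACAT2, the cytosolic thiolase that starts the pathway, was at 334 and 358 CPM and then at 303 and 277 CPM. In each of these genes 30 min replicate 2 was the lowest of the 4 libraries. Without a filter on low counts 8 of the 24 passed downwards, among them these 4, and with the block and only the 4 libraries 15 did, in fits that took no spread from a gene's own replicates. Replicates differed most at 0 min, where HMGCS1 was at 991 and 802 CPM. The median log2 difference of the list, replicate 2 over replicate 1, was -0.239 at 0 min and -0.154 at 30 min, and it was -0.0438 at 5 min, 0.0457 at 10 min and -0.0501 at 240 min. The list median against 0 min was -0.0026 at 10 min and -0.15 at 30 min. At 240 min HMGCS1 was at 2046 and 1899 CPM and the list median against 0 min was 0.26.

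Fatty acid synthesis genes were also mostly lower, without passing. Of 14 tested, 13 were lower at 30 min and 9 had an unadjusted p under 0.05, with a median log2 fold change of -0.16. Over all genes tested, 1.83% were lower at this p. In 12 of the 14 the 2 replicates at 0 min differed by more than the fold change between 10 and 30 min. FASN, fatty acid synthase, was at 1132 and 1091 CPM at 10 min and at 1015 and 856 CPM at 30 min, a log2 fold change of -0.25 (95% interval -0.42 to -0.08, adjusted p = 0.997). SCD, which puts the first double bond into fatty acids, was at 3295 and 3357 CPM and then at 3044 and 2714 CPM. ACSS2, an acetyl-CoA synthetase, was at 121 and 131 CPM and then at 112 and 101 CPM. SREBF1, the gene of the transcription factor SREBP-1, was at 49.2 and 51.9 CPM and then at 47.9 and 38.6 CPM. Again 30 min replicate 2 was the lowest of the 4 libraries, with replicate 1 nearer to the 10 min values. LPIN1, a phosphatidate phosphatase outside the list, was at 63.3 and 66.0 CPM and then at 52.7 and 55.2 CPM (log2 fold change -0.26). Without 30 min replicate 2 the median was -0.082 for fatty acid synthesis and -0.10 for cholesterol synthesis. FASN at 0 min was at 1176 and 988 CPM and at 5 min at 961 and 824 CPM. The median log2 difference of replicate 2 over replicate 1 was -0.19 at 0 min and -0.15 at 30 min, and at 5, 10 and 240 min it was -0.0154, -0.0132 and 0.0046. Without a filter 3 of the 14 passed downwards, and with the block and only the 4 libraries 6 did.

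**Figure D4:**
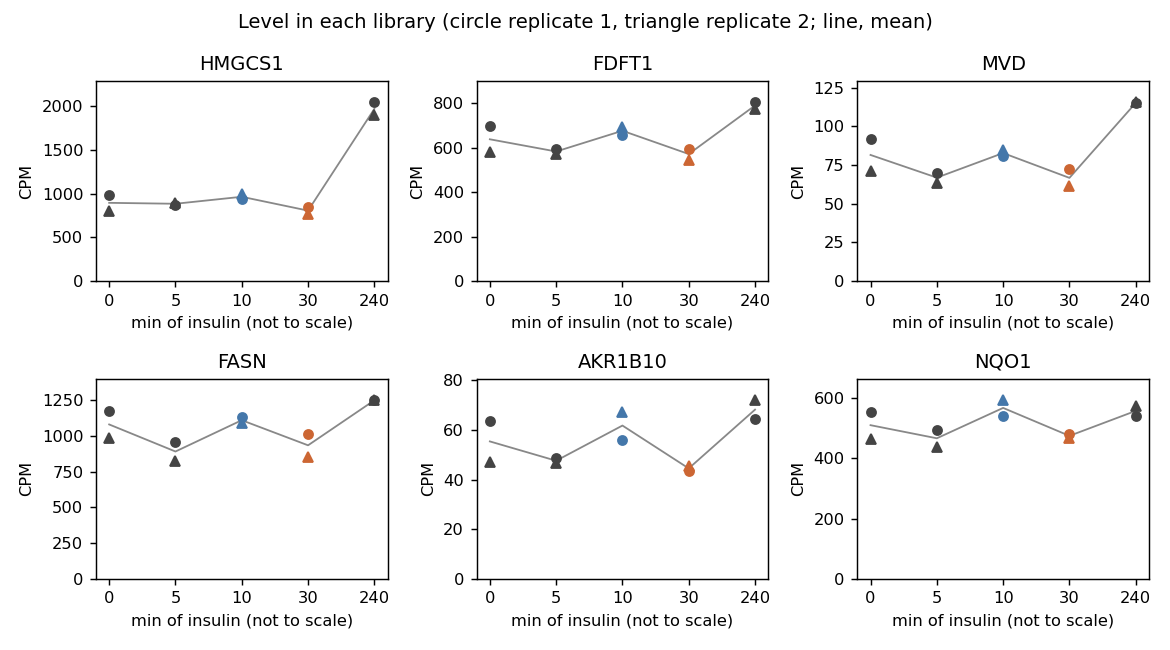
Level in CPM of HMGCS1, FDFT1, MVD, FASN, AKR1B10 and NQO1 in each of the 10 libraries, with time categories evenly spaced and each axis starting at 0. Both 30 min libraries lie below both 10 min libraries in each panel, and for HMGCS1 the 2 libraries at 0 min, at 991 and 802 CPM, lie further apart than the 2 at 10 min, at 938 and 994 CPM.

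NRF2 targets, the antioxidant and detoxifying enzymes, made the third group that was lower. Of 17 tested, 15 were lower and 8 had an unadjusted p under 0.05, with a median of -0.12. Over all genes tested, 1.83% were lower at this p. In 9 of the 17 the 2 replicates at 0 min differed by more than the fold change between 10 and 30 min. AKR1B10, an aldo-keto reductase, was at 56.2 and 67.4 CPM at 10 min and at 43.4 and 45.6 CPM at 30 min. Its log2 fold change was -0.47 (95% interval -0.69 to -0.25), and its adjusted p of 0.449 was the smallest among the lower genes. NQO1, a quinone reductase, was at 541 and 593 CPM and then at 482 and 467 CPM. SRXN1, sulfiredoxin, was at 96.1 and 99.9 CPM and then at 88.9 and 84.4 CPM, and AKR1C1, another aldo-keto reductase, had a log2 fold change of -0.25. At 0 min AKR1B10 was at 63.5 and 47.3 CPM, further apart than the replicates at 10 or at 30 min. Leaving out 10 min replicate 1 moved the list median to -0.18, and leaving out 10 min replicate 2 moved it to -0.073. Without a filter 4 of the 17 passed downwards, and with the block and only the 4 libraries 6 did.

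Scaling by the ERCC spike-in RNA instead of TMM raised the median of all genes by 0.195, and with it the medians of these 3 lists to 0.042 for fatty acid synthesis, 0.038 for cholesterol synthesis and 0.079 for NRF2 targets. Relative to the median of all genes they were -0.153, -0.158 and -0.116. ERCC reads were 1.73% of the counts of 10 min replicate 1 and 2.36% of those of replicate 2, against 1.66% and 1.85% at 30 min. Without 10 min replicate 2 the median of all genes under ERCC scaling was -0.0123, and the 3 lists were at -0.14, -0.15 and -0.088. 

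The other lower genes with the smallest p were PLAC8, COX18, ASUN, DDX49 and NDUFC2. COX18, which inserts a cytochrome oxidase subunit into the mitochondrial inner membrane, was at 22.8 and 24.8 CPM and then at 19.1 and 20.5 CPM. PLAC8 had a log2 fold change of -0.41, and those of the other 3 ran from -0.28 to -0.19. All 12 lower genes were above 0 min at 10 min and below it at 30 min in the fit, and none passed against 0 min at either time. The 12 were chosen for 30 min values below those at 10 min, and the comparisons with 0 min share these libraries. A 0 min level between the times is therefore favoured by the choice of genes, and the share of all genes with this order is not given here.

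No gene of the insulin pathway itself passed. INSR, the insulin receptor, was at 212 and 206 CPM at 10 min and at 217 and 205 CPM at 30 min, a log2 fold change of 0.015 (95% interval -0.10 to 0.13). Of 14 tested receptor and adaptor genes 8 were higher and 6 lower, and of 24 genes of PI3K and AKT 12 were higher and 12 lower, none at an unadjusted p under 0.05. The adaptors with the smallest p, SHC1 and SOS1, had log2 fold changes of -0.084 and 0.064. INPP5K, a phosphatase that acts on the lipid product of PI3K, had 0.20. Gluconeogenic genes also split evenly, 4 higher and 4 lower of 8. PCK1, which commits carbon to glucose, was at 11.7 and 13.3 CPM and then at 14.1 and 11.0 CPM, and the values overlapped. G6PC, the phosphatase that releases glucose, was at 34.8 and 29.8 CPM and then at 46.9 and 31.8 CPM, a log2 fold change of 0.30 that was -0.028 without 30 min replicate 1. Both genes were lowest at 240 min, PCK1 at 5.36 and 4.31 CPM and G6PC at 10.2 and 5.57 CPM.

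FOXO targets had a median of 0.033, with 12 of 16 higher, and without 10 min replicate 2 the median was 0.069. IGFBP1, an IGF-binding protein secreted by liver, was at 188 and 215 CPM at 10 min and at 222 and 217 CPM at 30 min. Both times were below its 270 and 290 CPM at 0 min (log2 fold changes of -0.48 and -0.35, adjusted p = 0.00027 and 0.0066). PIK3IP1, an inhibitor of PI3K, was at 14.6 and 14.5 CPM and then at 17.6 and 17.3 CPM (log2 fold change 0.26, adjusted p = 0.997). The alpha-arrestins, TXNIP and its relatives, had log2 fold changes from -0.065 to 0.097.

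**Figure D5:**
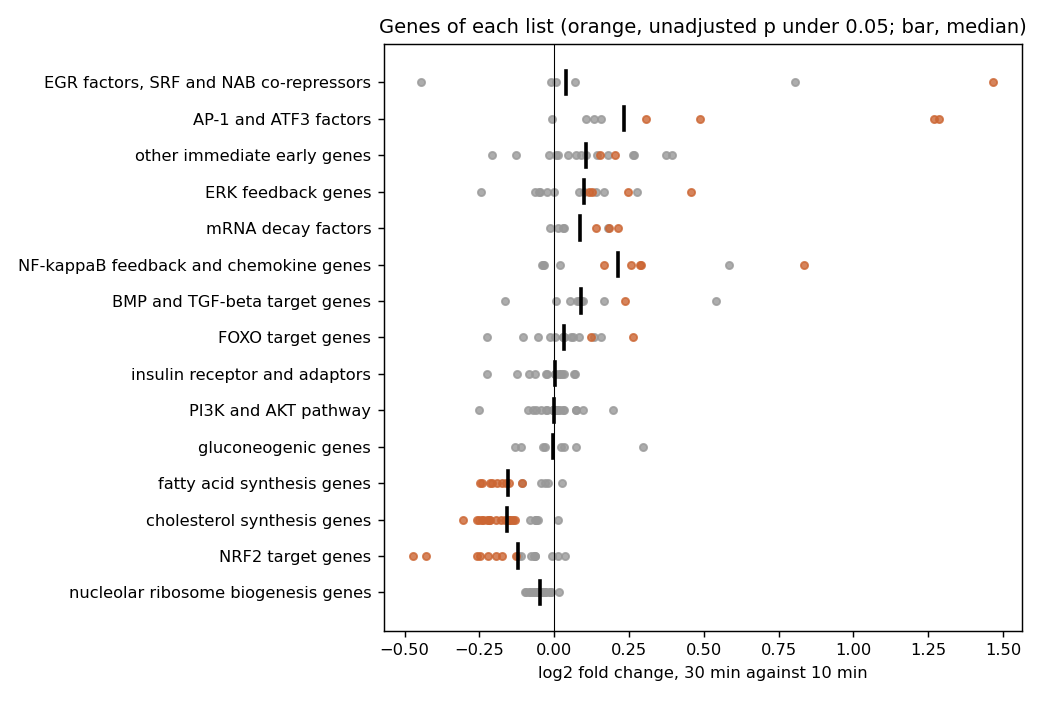
Log2 fold change at 30 min against 10 min of each tested gene of 15 lists, with a black bar at the list's median and in orange the genes with an unadjusted p under 0.05. The medians lie to the right of 0 for the AP-1 (0.23) and NF-kappaB lists (0.21), near 0 for the insulin receptor and PI3K lists, and to the left for the fatty acid, cholesterol and NRF2 lists.

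Hepatocyte markers were abundant, as the label of the line has it. ALB, albumin, was at 14400 to 19100 CPM in the 4 libraries and APOB, the protein of very low density lipoprotein, at 36400 to 39200 CPM, and neither separated the times. FGB and FGA, the fibrinogen beta and alpha chains, were the 2 of 18 secreted proteins with an unadjusted p under 0.05, with log2 fold changes of 0.35 and 0.26. FGB was at 278 and 255 CPM at 10 min, at 366 and 312 CPM at 30 min, and at 275 and 360 CPM at 0 min. Of the markers of other cells, PTPRC and CD3E of blood cells, KDR and TEK of endothelium and COL1A2 and DCN of fibroblasts were at 0 in the 4 libraries, whereas each of the other markers of these lists had reads in at least 1 library. CD68, of macrophages, was at 39.7 to 40.8 CPM, ACTA2, smooth muscle actin, at 55.5 to 65.5 CPM and PDGFRB, a growth factor receptor of stellate cells, at 10.8 to 13.6 CPM, and in each the times overlapped. PECAM1 of endothelium was at 1.75 to 2.29 CPM, VWF at 0.469 to 1.15 CPM and COL1A1 of fibroblasts at 1.4 to 1.94 CPM. The summed level of the blood list was 5236 to 5583 CPM, nearly all of it LYZ, lysozyme, and it was 68.7 to 78.5 CPM for fibroblast and 2.43 to 3.52 CPM for endothelial markers. RPLP0, a ribosomal protein often used as a reference, had a log2 fold change of -0.023, and TIMM22, part of a mitochondrial protein import complex, one of -0.17 (adjusted p = 0.997).

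With 2 replicates a time, each p-value set a difference against a spread taken from all 10 libraries and from the trend over genes. The fit had 5 residual and 13.9 prior degrees of freedom. That spread is the one between these libraries, not between repeats of the experiment. Reads counted on genes came to 26276180 and 23441697 at 10 min and to 28087570 and 20437471 at 30 min, and the replicates at each time varied beyond counting noise.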

How the data were processed

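Per the labels and methods, reads were trimmed with Trim Galore 0.6.4, aligned to hg19 with STAR 2.6.1d and assigned to genes as reverse-stranded with featureCounts 1.6.4, and the authors deposited raw counts. The authors also deposited StringTie abundances in TPM, which are scaled for length and depth and served as an alternative. The peak table of the ChIP-seq library was not used here.

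ERCC rows, without a gene name (1.59% to 2.36% of a library), stayed out of library sizes and tests. Library totals were 18347109 to 45005769 counts on genes. The 10 RNA-seq libraries were fitted in 1 model with edgeR 4.0.16 in R 4.3.3 (TMM, filterByExpr by time, two-sided quasi-likelihood test), 30 min was compared with 10 min, and p-values were adjusted over the 13852 tested genes. SEs come from the fold change and its F statistic. The test was checked on simulated data. Each simulated gene had the spread of the trend, so genes with a spread of their own were not covered. The 2 libraries at each time were separate libraries, since their counts gave chi-square values of 2.39 to 5.06 per degree of freedom.

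The comparison, the gene lists and the genes followed were chosen with earlier results of these data known. Genes named are those with an adjusted p under 0.05, the 12 higher and 12 lower genes with the smallest p among those reaching 5 CPM on average with no overlap between the times, in each list described up to 4 genes with an unadjusted p under 0.05 or otherwise the 2 smallest, all genes of lists of up to 8, and EGR1, FASN, SREBF1, TIMM22, PCK1, INSR and RPLP0. BIRC3, MIR6087 and the cell type markers given as levels were added after their values were seen. Some genes are not reported here. Promoters came from RefSeq (GRCh38.p14), which matched 10823 of the tested genes.

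Alternatives were no filter, at least 10 counts in every library, RLE, ERCC scaling, only the 4 libraries, a replicate block, thinning to the smallest total, DESeq2 1.42.0, limma 3.58.1 on TPM (from a mean of 1) as log2 with pseudocounts of 1 and 0.1, and each replicate left out. A block with only the 4 libraries, and ERCC scaling without 10 min replicate 2, were added after seeing the data. Figures were drawn with matplotlib 3.10.9 in Python 3.11.15.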

Additional observations from a re-analysis of the deposited data

How the results depend on the processing

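EGR1 passed under every alternative run, with log2 fold changes of 1.20 to 1.67 and adjusted p-values up to 0.0474. The genes passing upwards were 22 with no filter, 5 with ERCC scaling, 2 with only the 4 libraries, 2 after thinning, 4 with DESeq2, 2 and 4 with limma at pseudocounts of 1 and 0.1, and 4 with ERCC scaling without 10 min replicate 2. Downwards they were 19 with no filter, 1 and 1 with limma, 1 with ERCC scaling without 10 min replicate 2, and 0 to 1 when single replicates were left out, the 1 being SCN3A without 10 min replicate 2. The replicate numbers are shared by the times, but only 2 pairs exist and their deviations correlated by 0.198 over genes, so the numbers were not taken to pair the samples. With the replicate block 3 genes passed upwards (EGR1, NFKBIA and CXCL8) and 0 downwards, and with the block and only the 4 libraries 65 and 53. Counts at an unadjusted p under 0.05 were 594 higher and 584 lower with the block and only the 4 libraries, 101 and 84 with DESeq2, 96 and 50 with ERCC scaling without 10 min replicate 2, 11 lower with ERCC scaling, 169 lower with limma on log2(TPM + 1), and 164 to 450 higher and 142 to 509 lower when a replicate was left out. Under ERCC scaling the list medians were 0.43 for AP-1, 0.31 for ERK feedback, 0.41 for NF-kappaB, 0.042 for fatty acid synthesis, 0.038 for cholesterol synthesis and 0.079 for NRF2 targets. Relative to the median of all genes, 0.195 there, they were 0.233 for AP-1, 0.11 for ERK feedback and 0.21 for NF-kappaB. With at least 10 counts in every library the NF-kappaB median was 0.17. With single replicates left out the medians ran from 0.16 to 0.39 for AP-1, 0.16 to 0.21 for NF-kappaB, -0.19 to -0.082 for fatty acid synthesis and -0.18 to -0.073 for NRF2 targets.

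Of 1189 values of the other 75 genes, 1081 kept direction and side of the threshold, 73 in 37 genes came to pass and 35 changed sign, all in genes that did not pass. With ERCC scaling these were ASUN 0.0024, SRF 0.18, JUND 0.19, ACLY 0.036, SRXN1 0.021, CDC6 0.026, E2F1 0.040, MCM10 0.041, TIMM22 0.034, RPLP0 0.17, SHC1 0.12 and PCK2 0.056. After thinning they were JUND 0.019, PCK1 -0.071 and INSR -0.013. With limma at pseudocounts of 1 and 0.1 they were SRF 0.0078 and 0.0080, JUND 0.0087 and 0.0088, and RPLP0 0.0235 and 0.0236. With ERCC scaling without 10 min replicate 2 they were EGR3 0.81, NAB1 -0.013 and INSR -0.019. With single replicates left out, genes that changed sign ran from -1.17 to 0.82 for EGR3, -0.051 to 0.025 for SRF, -0.14 to 0.41 for FOSL1, -0.041 to 0.020 for JUND, -0.18 to 0.17 for PCK1, -0.027 to 0.054 for INSR, -0.058 to 0.0099 for RPLP0 and -0.028 to 0.53 for G6PC. The cause of these changes was not tested, though under ERCC scaling the median of all genes was 0.195 instead of 0.000946. Depth limits the scarce genes, and EGR3 rested on 3 to 11 reads in each of the 4 libraries.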

Other observations

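Several large gene groups had medians slightly below 0 at 30 min against 10 min, none of more than 0.053 in size. Under ERCC scaling the median of all genes was 0.195, so medians this small were bound to lie above 0 there. Relative to that median of all genes, cytosolic ribosomal protein genes were at -0.0301 and proteasome subunits at -0.0424. Without 10 min replicate 2 the median of all genes under ERCC scaling was -0.0123. Of 80 tested cytosolic ribosomal protein genes 64 were lower, with a median log2 fold change of -0.028 and 1 at an unadjusted p under 0.05. Without 30 min replicate 2 that median was 0.0051 with 34 lower, without 30 min replicate 1 it was -0.061, and under ERCC scaling it was 0.165. Mitochondrial ribosomal protein genes were lower in 62 of 79, subunits of oxidative phosphorylation in 54 of 77 and proteasome subunits in 34 of 42, with medians of -0.036, -0.033 and -0.044. With single libraries left out these ran from -0.0613 to -0.0227, from -0.0671 to -0.00824 and from -0.0647 to -0.0231, the first 2 lists at their ends without 30 min replicate 1 and 30 min replicate 2 and the third without 10 min replicate 1 and 10 min replicate 2. Nucleolar genes of ribosome biogenesis were lower in 20 of 21, each by less than 0.10 and none at an unadjusted p under 0.05, and the median of -0.048 ran from -0.082 without 10 min replicate 1 to -0.016 without 10 min replicate 2. Mitosis genes were lower in 14 of 18 with a median of -0.052, which was -0.013 without 30 min replicate 2. Among replication genes CDC6, E2F1 and MCM10, which act at the start of S phase, had log2 fold changes of -0.18, -0.16 and -0.15, while CCND2, cyclin D2, was at 2.94 CPM in each 10 min library and at 4.02 and 4.81 CPM at 30 min. ER chaperones were lower in 12 of 15 and heat shock proteins in 8 of 12, and genes of either list had no unadjusted p under 0.05. Without 10 min replicate 2 the chaperone median went from -0.031 to -0.0069 and the heat shock median from -0.029 to 0.0056, and without 30 min replicate 1 the heat shock median was 0.0011. BNIP3L, a mitophagy receptor of the hypoxia list, had a log2 fold change of 0.12. In the clock list PER2 and NR1D2 had log2 fold changes of 0.19 and 0.13, and in the ATF4 list TRIB3 had -0.21.

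ZNF zinc finger genes were higher in 263 of 459 and antisense noncoding RNAs in 191 of 336, with medians of 0.021 and 0.033. Leaving out 30 min replicate 2 turned the ZNF median to -0.0071, leaving out 10 min replicate 1 moved it to 0.0032, leaving out 30 min replicate 1 or 10 min replicate 2 moved it to 0.047 or 0.033, and the antisense median was 0.0056 without 30 min replicate 1. Of 20 tested replication-dependent histone genes 16 were higher, with a median of 0.14 that was 0.27 without 30 min replicate 1. Most of these transcripts lack a poly(A) tail and were scarce here, with a summed level of 82.6 to 96.7 CPM over the list. MIR6087, named after its values were seen, had the largest difference after EGR1 among genes of at least 5 CPM and did not pass. It was at 417 and 243 CPM at 10 min, at 787 and 441 CPM at 30 min, and at 661 and 1642 CPM at 5 min. Its log2 fold change of 0.89 was 0.41 without 30 min replicate 1, 0.56 without 10 min replicate 2 and 1.34 without 10 min replicate 1. MIR6087 passed under 3 of 16 alternatives, no filter (adjusted p = 1.37e-64), ERCC scaling (0.000273) and the block with only the 4 libraries (1.75e-116), all edgeR fits with infinite prior degrees of freedom, which took no spread from its own replicates.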
